A study of Mus musculus with 2 samples.

Results

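Exons are mostly read as templates for protein and RNA, yet some of them lie in open chromatin. The 2202 sites described here are accessible regions of the mouse cortex whose centre fell inside an exon of a protein-coding gene, more than 1 kb from every annotated transcription start site (TSS) and more than 1 kb from the 3′ end of every protein-coding gene. They were 2.8% of the 78595 accessible regions that both libraries shared on chromosomes 1 to 19. Peaks were joined across libraries wherever they shared 1 bp or more, joined peaks with a contribution from both libraries were kept, and position alone chose the sites. The name under which they were grouped, internal exons, described less than their majority. Of the 2202 sites, 1058 (48%) lay in exons that were internal in every annotated transcript holding them, 941 (42.7%) in last exons, 85 (3.86%) in genes of 1 exon, 61 (2.77%) in first exons and 57 (2.59%) in exons whose place differed between transcripts. They are therefore called exonic sites below. By sequence, 1564 (71%) were centred in coding sequence, 589 (26.7%) in 3′ untranslated regions (UTRs) and 49 (2.23%) in 5′ UTRs, and 1024 (46.5%) were both coding and internal.

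DNase-seq cuts nuclei lightly with DNase I and sequences the cut ends. Here the tissue was left cerebral cortex, from B6CASTF1/J females at 2 months of age, with 2 libraries, replicate 1 and replicate 2. The labels number the animals differently but give both the same donor entry, so the spread between the libraries may be technical. B6CASTF1/J mice have a C57BL/6J and a CAST/EiJ parent, so each cell carries 1 genome that differs from the C57BL/6J reference at many places, and alleles were not analysed here. There was 1 group, no treatment and no control. The smallest p that an exact permutation test on 2 libraries can reach is 0.5, so no test was made, and values are given per library or as a mean ± SD with n = 2.

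Nuclease-accessible DNA is DNA from which nucleosomes are displaced or loosened, usually at promoters and at enhancers bound by transcription factors. Coding exons can hold such sites too, and the bases there then serve the genetic code and protein binding at once. CTCF, a zinc finger protein that shapes chromatin loops, is known for sites spread through genes as well as between them. In bulk tissue, fewer cells with an open site and less accessibility per cell cannot be told apart.

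The sequences below show the exonic sites on which the results turn most, taken from the reference genome GRCm38.p6 (mm10) and so from the C57BL/6J copy. A first set is of strong coding sites, with capitals on bases that lay in footprints of both libraries. Footprints are short stretches protected from cutting inside an accessible site, and they mark where a protein may sit. Angptl6, a gene of a secreted angiopoietin-like protein, held the strongest coding site in exon 2 (chr9:20878271-20878390, minus strand). Sptbn4, the gene of the beta-IV spectrin of axon initial segments and nodes of Ranvier, is shown across the end of exon 33 (chr7:27361511-27361630, minus strand). Rsad1, a gene of the radical SAM family, is shown across all of exon 5 (chr11:94544081-94544200, minus strand). Tbr1, a T-box gene expressed in excitatory neurons of the deep layers, is shown in its last exon, where overlapping footprints were among the most numerous (chr2:61811711-61811890, plus strand).
Angptl6: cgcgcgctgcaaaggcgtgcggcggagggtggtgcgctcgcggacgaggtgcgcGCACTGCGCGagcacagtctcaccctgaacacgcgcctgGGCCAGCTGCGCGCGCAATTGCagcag
Sptbn4: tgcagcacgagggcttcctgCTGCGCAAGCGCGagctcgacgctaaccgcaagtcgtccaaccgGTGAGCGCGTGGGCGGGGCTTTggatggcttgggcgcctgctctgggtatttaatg
Rsad1: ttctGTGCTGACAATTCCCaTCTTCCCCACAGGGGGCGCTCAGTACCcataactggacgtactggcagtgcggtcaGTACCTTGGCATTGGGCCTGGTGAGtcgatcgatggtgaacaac
Tbr1: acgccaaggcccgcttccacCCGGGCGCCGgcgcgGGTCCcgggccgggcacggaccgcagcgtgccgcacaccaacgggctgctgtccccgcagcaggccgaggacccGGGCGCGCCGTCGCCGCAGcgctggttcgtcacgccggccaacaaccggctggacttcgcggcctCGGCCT
In Sptbn4 the first 64 bases are exon, and the second run of capitals begins at the first base of the intron. In Rsad1 the exon is 64 bp long, with intron on both sides, and runs of capitals cross both its splice sites. All 120 bases of Angptl6 and all 180 bases of Tbr1 are coding.

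A second set shows 60 bases of coding sequence around a match to the CTCF consensus in each of 4 sites, printed on the strand of the match, with capitals on the match. Hey1 (chr3:8664668-8664727, plus strand) encodes a bHLH repressor downstream of Notch. Pgls (chr8:71596093-71596152, minus strand) encodes 6-phosphogluconolactonase of the pentose phosphate pathway. Gpr153 (chr4:152283355-152283414, minus strand) encodes an orphan G protein-coupled receptor. Chpf (chr1:75477553-75477612, plus strand) encodes a chondroitin-polymerizing factor.
Hey1: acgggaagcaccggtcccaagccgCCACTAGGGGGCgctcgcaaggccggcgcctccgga
Pgls: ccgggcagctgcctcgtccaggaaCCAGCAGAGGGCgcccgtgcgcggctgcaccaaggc
Gpr153: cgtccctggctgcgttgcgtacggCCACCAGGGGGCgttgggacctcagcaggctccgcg
Chpf: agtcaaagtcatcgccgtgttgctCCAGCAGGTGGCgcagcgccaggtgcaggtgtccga
In each of these sites a footprint found in both libraries overlapped the match. The match lay on the strand opposite to the gene in all 4.

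The samples looked like cortex. Shared peaks stood within 500 bp of a TSS of Slc17a7, Neurod2, Neurod6, Camk2a and Tbr1 of excitatory neurons, of Gad2, Slc32a1 and Lhx6 of inhibitory neurons, of Slc1a2, Gfap and Sox9 of astrocytes, and of Mbp and Olig2 of oligodendrocytes. There was none at Mog, at Cx3cr1, Csf1r and Spi1 of microglia, or at Cldn5 and Pecam1 of endothelium. There was also none at Alb and Hnf4a of liver, Myod1 and Ckm of muscle or Krt5 of epithelium, whereas Cdh1, an epithelial cadherin gene, had one. The libraries were alike in depth: the step between signal values, read as the worth of 1 cut, gave 206.4 M cuts for replicate 1 against 208.2 M for replicate 2.

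Exonic sites had the signal of intronic sites and about 50% of that of promoters. Signal is the authors' height of the cut density, scaled by them to read depth. Its median over exonic sites was 0.707 in replicate 1 and 0.701 in replicate 2, a mean of 0.704 ± 0.00431 (SD, n = 2). Intronic sites under the same distance limits had 0.673 and 0.701, a mean of 0.687 ± 0.0197, so the ranges of the 2 libraries met. Sites within 1 kb of a gene 3′ end had 0.833 and 0.884, and sites within 1 kb of a TSS had 1.43 and 1.39 (1.41 ± 0.0291), above exonic sites in both libraries. Among exonic sites, 3′ UTR sites had 0.751 and 0.773, coding sites 0.681 and 0.668, and the 49 sites in 5′ UTRs 0.877 and 0.86. Sites in last exons had 0.775 and 0.759, and sites in internal exons 0.635 and 0.653. The middle 50% of the exonic sites lay between 0.48 and 1.09 in replicate 1 and between 0.49 and 1.15 in replicate 2.

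**Figure D1:**
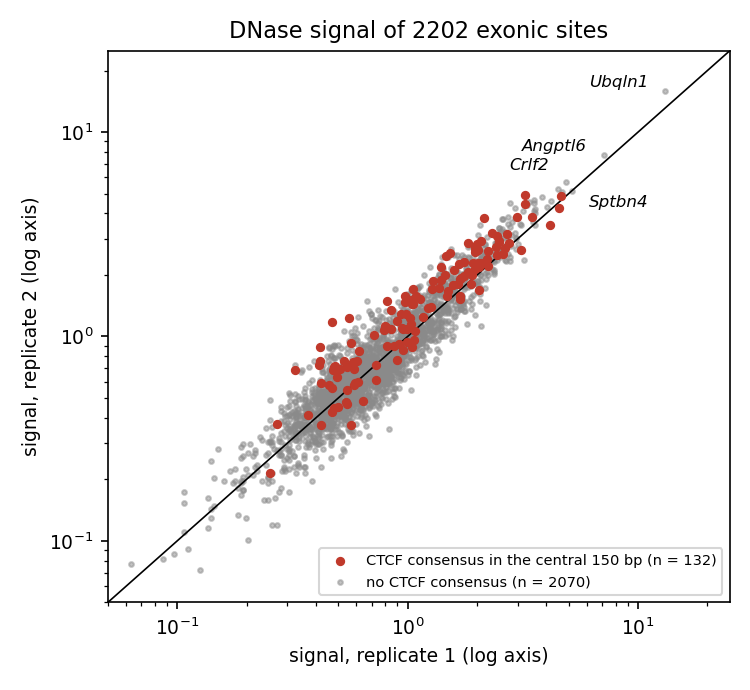
Signal of the 2202 exonic sites in replicate 1 (x axis) and replicate 2 (y axis), both on log axes, with the line of equality; red points carry a CTCF consensus match in their central 150 bp and grey points do not. The sites follow the line over their whole range, Ubqln1 stands apart at the top, and many red points lie above the line.

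The libraries gave similar signal at these sites, once the sites were found in both. After centring on the median of all shared peaks, 99.4% of the exonic sites lay within 2-fold between libraries. The share was 99.2% for all shared peaks and for intronic ones. Log2 signal had a Pearson's r of 0.929 and a Spearman's rho of 0.909 over the 2202 sites, which share their libraries. Over all shared peaks these were higher, 0.957 and 0.941, and over intronic sites they were 0.926 and 0.902. Finding exonic sites in both libraries was less common than for all regions. Of 5196 merged exonic peaks 42.4% were found in both libraries, against 52.2% of all merged peaks, 44.9% of intronic peaks and 67.2% of peaks within 1 kb of a TSS. Replicate 1 alone had 1839 exonic peaks and replicate 2 alone had 1155. On the authors' smaller and stricter list, 1115 of the 2202 sites (50.6%) were present in both libraries, against 60.8% of all shared peaks and 49.5% of intronic ones. With the median of all shared peaks as the zero, 1248 of the 2202 sites were higher in replicate 1.

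Of the 2202 sites, 14 were more than 2-fold apart. Chst2, a sulfotransferase gene, had 0.833 in replicate 1 and 0.351 in replicate 2 at a coding site in its last exon, a centred log2 ratio of 1.34. Anks1b, a gene of a postsynaptic adaptor protein, had 0.257 and 0.12 in exon 17 (1.19), and Cd274, which encodes PD-L1, 0.678 and 0.327 in exon 3 (1.15). Among these, the site at Anks1b was in the smaller list of both libraries, and those at Chst2 and Cd274 were not.

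Width moved with the balance of the libraries. The 612 exonic sites of at most 200 bp had a median centred log2 ratio of replicate 1 over replicate 2 of -0.08, and 248 of them were higher in replicate 1. The 543 sites over 300 and up to 500 bp had 0.13, the 309 over 500 and up to 1000 bp 0.25, and the 65 above 1000 bp 0.33, with 58 of the 65 higher in replicate 1. Intronic sites moved the same way, with -0.10 at most 200 bp and 0.31 above 1000 bp. Exonic sites were 261.5 bp wide at the median, against 240.0 bp for intronic sites. The widest, each centred in coding sequence, spanned 2620 bp at Pcdh10, a protocadherin gene (1.46 in replicate 1 and 1.08 in replicate 2), 2427 bp at Per1, a circadian repressor gene (0.339 and 0.307), and 2140 bp at Foxo3, a forkhead factor gene (1.49 and 1.03). The exon that holds the centre was 617 bp long at Per1 and 730 bp at Foxo3, so these sites ran well beyond it.

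Exons held more accessible sites than introns, base for base. Eligible exon sequence, that is, exon that meets the distance limits, measured 38.6 Mb and held 57 shared sites per Mb, against 27.8 per Mb over 809.5 Mb of intron. Counted in each library alone, exons had 113.3 and 94.3 peaks per Mb (103.8 ± 13.4; SD, n = 2) and introns 48.9 and 44.1 (46.5 ± 3.41). The lower exon value was above the higher intron value. Coding sequence had 71.8 shared sites per Mb, 5′ UTRs 89.1 over only 0.55 Mb, and 3′ UTRs 36.2. The deposited cut-rate calls, which list bases at a false discovery rate (FDR) below 0.05, also put coding above UTR and UTR above intron sequence, with 5′ and 3′ UTRs pooled: 4.14% of coding bases in replicate 1 and 3.15% in replicate 2 were listed, and 2.48% and 1.83% of UTR bases, against 1.43% and 1.13% of intron bases. GC content differed within exons, with a median of 50% in coding windows without a peak and 42.7% in UTR windows without a peak, and its part in the density was not tested.

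**Figure D2:**
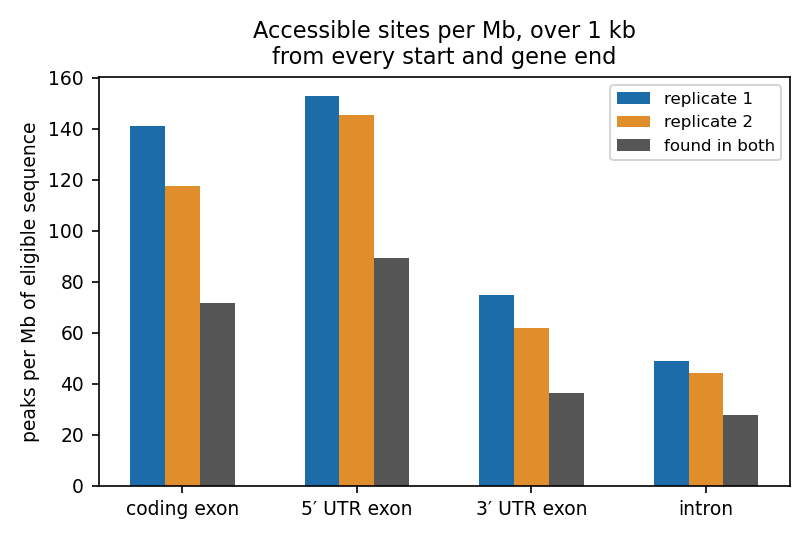
Peaks per Mb of eligible sequence in coding exon, 5′ UTR exon, 3′ UTR exon and intron, as bars for replicate 1, replicate 2 and the sites found in both. Coding sequence and 5′ UTRs have the tallest bars in each library, and intron has the lowest.

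Accessibility was centred on exons. Around 82252 internal exons of 80 to 200 bp, 1.92% of exon centres lay under a peak in replicate 1 and 1.54% in replicate 2 (1.73 ± 0.274; SD, n = 2). At 400 bp upstream the values were 1.12% and 0.877%, and at 400 bp downstream 1.17% and 0.93%, so the centre was higher within each library. Farther out coverage rose again, to 1.45% and 1.16% at 1000 bp upstream, still below the centre. GC content in 150 bp windows was also highest at the exon centre, with 49.2%. It was 44.4% at 400 bp upstream, 44.6% at 400 bp downstream and 44.7% at 1000 bp upstream, without a like rise. The part of GC content in the accessibility was not tested.

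**Figure D3:**
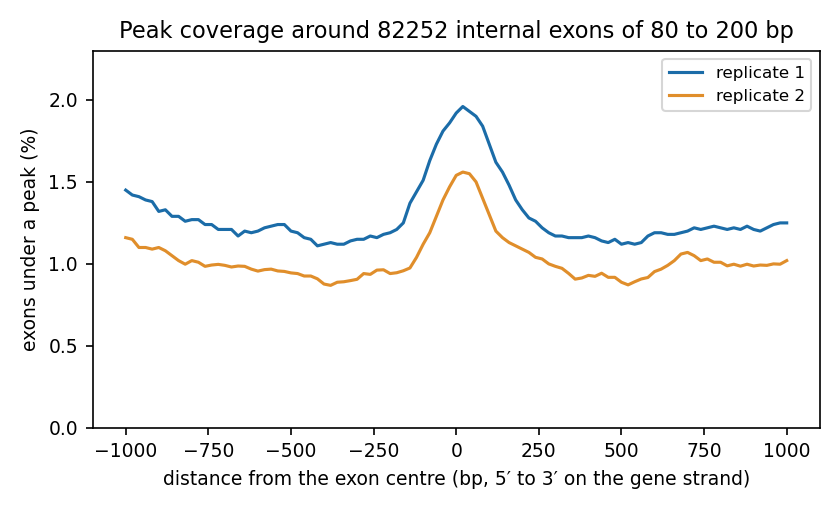
Percent of 82252 internal exons under a peak (y axis, from 0) by distance from the exon centre in bp along the gene (x axis), with 1 line per library. Both lines peak near the centre, at 1.92% and 1.54%, and fall to 1.12% and 0.877% at 400 bp upstream. They rise again to 1.45% and 1.16% at 1000 bp upstream.

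Long internal exons held a site far more often than short ones. Of 121181 internal exons with eligible bases, 1025 (0.846%) held a shared site. The share was 0.244% of exons of at most 100 bp, 0.568% of those over 100 and up to 150 bp, 1.07% up to 200 bp, 1.59% up to 300 bp, 4.09% up to 1000 bp and 8.62% above 1000 bp. Per Mb of exon the gradient was shallower, with 33.7 sites at most 100 bp, 83.6 over 300 and up to 1000 bp and 50.2 above 1000 bp. The host exon of a site in an internal exon was 188 bp long at the median. Of the 1058 such sites, 456 (43.1%) covered both splice sites, 179 the acceptor only, 209 the donor only and 214 neither. The last intron base before the exon lay in a footprint at 12.6% of the covered acceptors in replicate 1 and 11.3% in replicate 2, against 9.41% and 8.65% of all bases of these sites. The first intron base after the exon did so at 6.62% and 9.17% of the covered donors, below the all-base value in replicate 1 and above it in replicate 2.

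About the same share of exonic and intronic sites held a footprint. Footprints per kb were somewhat fewer in exonic sites of all widths together, but not at every width. A footprint was present in 89.7% of exonic sites in replicate 1 and 89.3% in replicate 2, against 89.7% and 89.8% of intronic sites. Per kb there were 8.8 and 7.74 footprints in exonic sites, 9.06 and 8.33 in intronic sites, and 11.8 and 10.3 in sites within 1 kb of a TSS. Footprints of both libraries overlapped each other in 1400 exonic sites (63.6%), against 68.2% of all shared peaks and 64.4% of intronic ones, and 77 exonic sites had no footprint in either library. The most overlaps, 9 each, were in wide sites: that of Tbr1 shown above, of 1360 bp, and one of 1800 bp at Fjx1, a gene of a Golgi-associated signalling protein. A site at Tchh, which encodes trichohyalin of hair follicles, had 8.

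The strongest exonic site by a wide margin was in the 3′ UTR of Ubqln1, which encodes the proteasome shuttle ubiquilin. Its signal was 13.1 in replicate 1 and 15.8 in replicate 2, in exon 11 of 11, at chr13:58177621-58177840. GC content there was 44%, none of its 31-base words occurred elsewhere in the genome, and none of the motifs searched matched. The coding site of Angptl6 printed above had 7.09 and 7.74. Crlf2, a cytokine receptor subunit gene, had 4.85 and 5.68 at exon 2, and Sptbn4 5.18 and 5.17 at exon 33. Fbxl22, an F-box gene, had 4.69 and 5.12 in its last exon. Hey1 had 4.53 and 4.24 in its last exon, Stk35, a kinase gene, 4.17 and 4.59 in exon 2, and Slc4a3, an anion exchanger gene, 4.62 and 4.89 in its 3′ UTR. Other strong coding sites were at Psmc2, a gene of a proteasome ATPase (3.84 and 4.84), Zfp219, a zinc finger gene (4.02 and 4.28), Sft2d3, a gene of vesicle transport (3.55 and 4.66, with an NRF1 match), and Rsad1 (3.55 and 4.48).

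Another annotation placed starts at several of these. RefSeq transcript starts, which the choice of sites did not use, lay within 1 kb of 120 of the 2202 exonic sites (5.45%) and of 4.04% of intronic sites. Of the 120, 42 were near a curated RefSeq start and 78 near a predicted one only. Stk35 was 82 bp and Psmc2 16 bp from a curated start, and Angptl6 and Pgls were 269 and 245 bp from predicted ones. The sites assigned to B430305J03Rik (4.51 and 5.27, which also lies in an exon of Rap2b, a small GTPase gene) and to A930004D18Rik (4.66 and 4.91), both uncharacterized genes, were 24 and 312 bp from curated starts. Ubqln1, Crlf2, Sptbn4, Fbxl22, Slc4a3, Hey1, Zfp219 and Rsad1 had none within 1 kb. The 120 sites had a median signal of 0.867 in replicate 1 and 0.831 in replicate 2, and the other 2082 had 0.693 and 0.692. Among the 100 strongest exonic sites, 12 were within 1 kb of a RefSeq start, 67 were coding, 29 were in 3′ UTRs, and all 100 had footprints that overlapped between libraries.

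Exonic sites were rich in GC and CpG for their class. In the central 150 bp the median GC content was 57.3%, against 52.7% in intronic sites, 62.7% in sites within 1 kb of a TSS and 47.3% in exon windows without a peak. The ratio of observed to expected CpG was 0.453, against 0.252 in intronic sites, 0.719 near a TSS and 0.267 in exon windows without a peak. Coding sites had 0.498 and 3′ UTR sites 0.296. Windows with GC above 50% and a CpG ratio above 0.6 were 27.4% of exonic sites, 5.2% of intronic sites and 59.2% of sites near a TSS. Sites 1 to 2 kb from a TSS had a GC content of 60% and a CpG ratio of 0.557, and those 10 to 50 kb away had 55.3% and 0.426. Signal was 0.756 in replicate 1 and 0.718 in replicate 2 at 1 to 2 kb, and 0.63 and 0.658 at 10 to 50 kb. The median distance to a TSS was 5151.0 bp.

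CTCF was the sequence motif that set exonic sites furthest apart from other exon. Its 12-letter consensus matched 132 sites (5.99%), against 5.91% of all shared peaks, 6.98% of intronic sites and 0.051% of 249100 exon windows without a peak. Weighting those windows to the sites by bins of GC content (0 to 45%, 45 to 55%, 55 to 65% and 65 to 100%) gave 0.0957%. The highest bin held 14.6% of the sites and 1.1% of the windows, and GC content can still differ within a bin. The CTCF share of exonic sites was thus near that of accessible sites in general. Within the sites it was 3.84% of coding sites and 11.4% of 3′ UTR sites (67 of 589). Of the 132 sites, 123 (93.2%) had a match that overlapped a footprint found in both libraries. Sites with a match had a median signal of 1.06 in replicate 1 and 1.44 in replicate 2, against 0.693 and 0.677 without. Of the 132, 37 were higher in replicate 1 after centring, against 1211 of the 2070 without a match. Sites with a match were also narrower, 200 bp at the median against 280 bp. Among sites of at most 300 bp the counts were 36 of 129 with a match and 559 of 1156 without. Intronic sites of any width showed 333 of 1571 and 10889 of 20931. Because the search covers only the central 150 bp, wide sites can hold matches that it misses. Matches on the strand of the gene numbered 51 of 132 (38.6%), and 23 of 60 in coding sites.

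Among the sites with the highest signal whose CTCF match overlapped such a footprint were Slc4a3 and Hey1, given above, and 8 others over many kinds of gene. Slc43a2, an amino acid transporter gene, had 4.16 in replicate 1 and 3.52 in replicate 2 in its 3′ UTR, and Tnfrsf1b, a TNF receptor gene, 3.23 and 4.43. Pgls had 3.48 and 3.83 at the coding site printed above, Gpr153 2.7 and 3.16, and Chpf 3.12 and 2.65. Ky, a gene of muscle, had 2.98 and 3.85 in its 3′ UTR, and Tspan15, a tetraspanin gene, 2.15 and 3.82. Epg5, an autophagy gene, had 3.24 and 4.95 in exon 32 of 44. Of these 8, Slc43a2 and Chpf were higher in replicate 1 as deposited, and the other 6 were higher in replicate 2.

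Other motifs were searched on both strands in the same windows, where a match is a description and not a bound site. NRF1, an activator of many GC-rich promoters, matched 28 exonic sites (1.27%), against 0.209% of intronic sites and 4.55% of sites near a TSS. In exon windows weighted by the same GC bins it matched 0.212%. Those 28 had a median signal of 1.42 in replicate 1 and 1.71 in replicate 2, and 25 were coding. The EGR site GCGTGGGCG, of the activity-induced zinc finger factors, matched 10 sites (0.454%), against 0.196% of intronic sites and 0.107% of weighted windows. Of the 10, 1 is the Sptbn4 site printed above, which also matched NRF1 and the SP/KLF site CCCCGCCC. In the printed bases its EGR and SP/KLF matches lie in the intron after exon 33, and its NRF1 match lies in the exon. SP/KLF matched 40 sites (1.82%), against 1.61% of intronic sites, 14.8% near a TSS and 1.3% of weighted windows. The NEUROD E-box CAGATG, of neuronal bHLH factors, matched 397 sites (18%), against 19.8% of intronic sites and 13.7% of weighted windows.

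AP-1, the site TGANTCA of Fos and Jun proteins, was in 122 exonic sites (5.54%), against 9.76% of intronic sites, 3.42% near a TSS and 2.61% of weighted exon windows. Of its 122 sites, 14 (11.5%) had a match that overlapped a footprint found in both libraries. In coding sites the share was 4.73% and in 3′ UTR sites 7.81%. The GATA site AGATAAG matched 11 exonic sites (0.5%), against 1.16% of intronic sites and 0.879% of weighted windows. REST matched 0 exonic sites and 0.0178% of intronic ones. MEF2 matched 33 sites (1.5%), against 2.16% of intronic sites. The CRE site TGACGTCA was in 6 and the ETS site CCGGAAGT in 10.

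**Figure D4:**
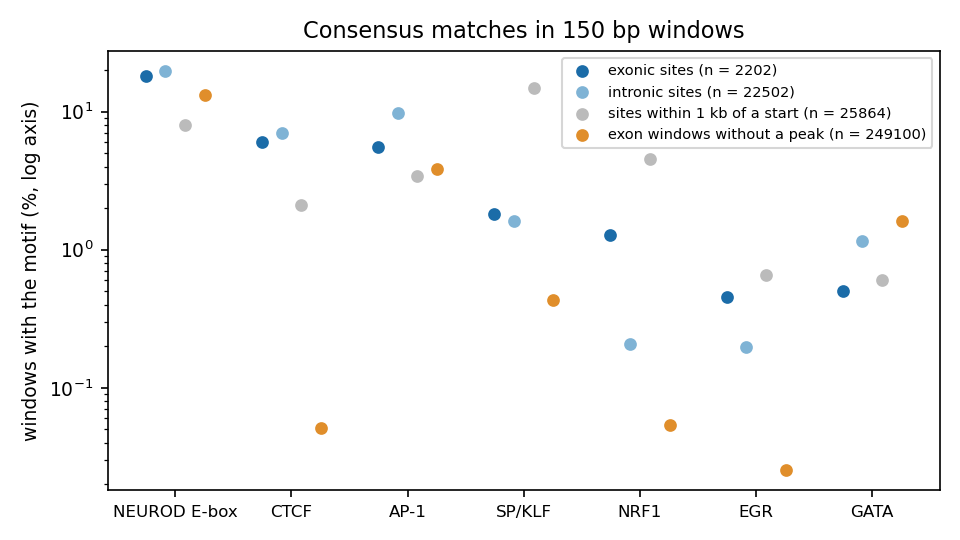
Percent of 150 bp windows with a consensus match (y axis, log) for 7 motifs, with points for exonic sites, intronic sites, sites within 1 kb of a start, and exon windows without a peak. For CTCF the exonic and intronic points stand together far above the exon windows, and for NRF1 the exonic point, at 1.27%, stands between the intronic and the promoter points.

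The sites belonged to 1811 genes, 10.1% of the 17870 protein-coding genes with eligible exon. Of these genes, 1501 held 1 site, 242 held 2, 44 held 3 and 24 held 4 or more. Genes with a site had more eligible exon, 2836.0 bp at the median against 1368.0 bp in other genes. They also had a shared peak within 500 bp of a TSS more often, 85.5% against 67.7%. Among the 4468 genes with the most eligible exon the promoter shares were 89.7% and 82%, and among the 4471 with the least 71.4% and 54.6%. Joining sites within 500 bp of each other left 2030 stretches, and 139 of these held more than 1 site, up to 5, so sites of 1 gene can be pieces of 1 open stretch.

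Syne1, the gene of the giant nuclear-envelope spectrin-repeat protein nesprin-1, held most sites, 7, all coding and all in internal exons. It has 27381 bp of eligible exon, against a median of 2836.0 bp in genes with a site. The sites in exons 60, 77, 92 and 125 were not in the smaller list of both libraries. The strongest of the 7, in exon 89 of 146, had 2.09 in replicate 1 and 2.01 in replicate 2, and the weakest, in exon 60, 0.46 and 0.48. Sptbn4 held 6, all coding and internal. Besides exon 33 these were in exon 17 (1.84 and 2.04), exon 21 (1.31 and 1.68), exon 14 (1.24 and 1.66), exon 28 (1.48 and 1.39) and exon 29 (0.838 and 0.624). The sites of Syne1 and Sptbn4 are far apart along their genes, apart from exons 28 and 29 of Sptbn4, which neighbour each other.

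In other genes the sites tiled 1 long exon. Tchh held 5 in its last exon of 5685 bp, with signal between 0.552 and 1.91 in replicate 1 and between 0.437 and 1.45 in replicate 2, and all 5 were higher in replicate 1. Plec, the gene of the cytolinker plectin, held 5 weak sites in its last exon of 7410 bp, with 0.281 to 0.334 in replicate 1 and 0.235 to 0.351 in replicate 2. Ntrk2, which encodes TrkB, the receptor of the neurotrophin BDNF, held 5, all in 3′ UTRs. The site at chr13:58934694-58935099, in the last exon of a shorter transcript, had 0.712 in replicate 1 and 0.778 in replicate 2, and 4 others in the last exon of the long transcript had 0.203 to 0.46 and 0.221 to 0.327.

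Of the 24 genes with 4 or more sites, the next by summed signal were Srcin1, Scn8a, Synpo, Pcdh17 and Anks1b. Srcin1, a gene of an SRC kinase inhibitor at synapses, had 4, led by exon 12 (3.29 in replicate 1 and 4.41 in replicate 2) and exon 8 (1.58 and 1.59). Scn8a, the gene of a sodium channel of axon initial segments, had 4, with 1.59 and 1.74 in exon 9, 1.43 and 1.62 in exon 12, 0.741 and 0.639 in the coding part of exon 27 and 1.55 and 1.95 in its 3′ UTR. Synpo, the gene of the spine apparatus protein synaptopodin, had 4, led by 3.57 and 4.19 in its last exon at a site with an NRF1 match. Anks1b had 3 in its 3′ UTR, the strongest with 2.33 and 2.15, beside the weak one in exon 17. Pcdh17 had 4 in its first exon of 5091 bp, from 0.707 to 1.43 in replicate 1 and from 0.495 to 1.34 in replicate 2.

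Groups of genes differed widely in how many held an exonic site, and are given beside the 10.1% of all eligible genes. These counts were not tested, and the lists differ in eligible exon and in promoter accessibility. Spectrins and ankyrins, which build the submembrane skeleton, had one at 5 of 9 genes (55.6%), among them Sptbn4 and Sptb, the gene of erythrocyte beta spectrin, which had 1.64 in replicate 1 and 2.5 in replicate 2 at a 3′ UTR site. In single libraries the share of spectrins and ankyrins was 66.7% in each, against 15.7% and 13.9% of all eligible genes. Telencephalic transcription factors had 9 of 19 (47.4%), with 15 sites and 240.3 per Mb of eligible exon, against 56.6 over all genes. All 19 (100%) also had a promoter peak, against 69.5% of all eligible genes. Sox11, a SoxC factor gene, had 1.46 in replicate 1 and 1.38 in replicate 2 in its 3′ UTR, and Pou3f3, a POU factor gene, 1.59 and 1.24 in its single exon. Zbtb18, a repressor gene of neuronal differentiation, had 1.29 and 1.06, and Tbr1 1.35 and 0.965. The Zbtb18 site was not in the smaller list of both libraries.

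Lists of synaptic, channel and activity genes come next. Postsynaptic scaffolds had 8 of 17 (47.1%), led by Shank1 (1.36 in replicate 1 and 1.17 in replicate 2 in exon 24 of 25), Agap2 (1.13 and 1.18) and Shank3 (0.988 and 0.884 in exon 21 of 22). These sites of Shank1 and Shank3 lay in exons of 3088 and 2257 bp, and neither was in the smaller list of both libraries. Voltage-gated and potassium channels had 37 of 131 (28.2%), among them Kcnn4, a calcium-activated potassium channel gene (1.76 and 2.32 in its 3′ UTR, with a CTCF match). Glutamate receptors had 6 of 26 (23.1%), among them Grm5, a metabotropic receptor gene (0.935 and 0.802 in its last exon). Immediate early genes, induced in neurons by activity, had 7 of 18 (38.9%). Fosb had 1.84 and 2.79, Jun 1.07 and 1.33, both in the 3′ UTR, and Egr4 1.05 and 0.912 over 1889 bp that include coding sequence. In single libraries immediate early genes had 72.2% and 44.4%, a wide spread for 18 genes. Per Mb of eligible exon the order differed. Against 56.6 sites over all genes, postsynaptic scaffolds had 103.5, voltage-gated and potassium channels 110.6, glutamate receptors 82.3 and immediate early genes 196.3.

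Markers of cell types are given next. Excitatory neuron genes had 6 of 18 (33.3%), with 3 sites at Tbr1, and with Neurod2 (1.34 in replicate 1 and 0.869 in replicate 2) and Lingo1 (1.02 and 0.792). The Lingo1 site was not in the smaller list of both libraries. Oligodendrocyte genes had 4 of 18 (22.2%), with Sox8 at 2.47 and 2.67, Mbp at 1.59 and 2.5 over its exon 5 of 33 bp, Mobp at 1.74 and 1.46, and Olig2. Inhibitory neuron genes had 2 of 19 (10.5%), Reln (0.46 and 0.61) and Slc32a1 (0.509 and 0.461), neither of them in the smaller list of both libraries. Astrocyte genes had 2 of 18 (11.1%), Sox9 (1.09 and 0.706 at the stronger of 2) and Gfap (0.882 and 0.504 at the stronger of 2). Neither Gfap site was in the smaller list of both libraries. Endothelium and pericytes had 3 of 16 (18.8%), led by Notch3 (2.33 and 2.52), and microglia 1 of 18 (5.56%), Runx1 (0.557 and 0.543). The lists differ in promoter peaks too, from 100% for excitatory neurons to 33.3% for microglia. Per Mb of eligible exon, microglia had 33.2 sites and inhibitory neurons 36, against 56.6 over all genes. Endothelium and pericytes had 75.7, astrocytes 95.7, excitatory neurons 124.9 and oligodendrocytes 141.6.

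Among other families, adhesion and LRP-type receptors had 15 of 48 (31.2%), led by Adgrd1 (2.92 in replicate 1 and 3.81 in replicate 2) and Adgrv1 (2.39 and 2.87), both adhesion G protein-coupled receptor genes with a site in an internal exon. Kinesins and myosins, the motors of microtubules and actin, had 22 of 77 (28.6%), led by Kif26b (2.74 and 3.11) and Myo3b (2.06 and 3.52, with an AP-1 match). Axon guidance genes had 17 of 66 (25.8%), led by Ephb2, an ephrin receptor gene (2.84 and 3.63 in its 3′ UTR). Chromatin modifiers had 14 of 81 (17.3%), led by Kmt2a, a histone methyltransferase gene (1.18 and 2 in exon 11). Collagens and laminins had 9 of 54 (16.7%), protocadherins 7 of 64 (10.9%), and solute carriers 35 of 343 (10.2%), close to all genes. Per Mb of eligible exon the order differed. Against 56.6 sites over all genes, adhesion and LRP-type receptors had 63.5, kinesins and myosins 75.1 and axon guidance genes 93.4. Chromatin modifiers had 48, collagens and laminins 50.6, protocadherins 88 and solute carriers 57.

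Zinc finger, keratin, olfactory receptor, Hox, hepatocyte and muscle genes follow. Of the 371 C2H2 zinc finger genes named Zfp, 25 (6.74%) had a site although 87.3% had a promoter peak. In keratins 10% of genes had a promoter peak and 4 of 50 (8%) a site, which made 102.2 sites per Mb of eligible exon, above the 56.6 of all genes, with Krt77 at 1.42 in replicate 1 and 1.73 in replicate 2. Olfactory receptors had 4 of 821 (0.487%), and 3 of the 4 lay in a 3′ UTR, among them Olfr1410 with a CTCF match (0.974 and 1.58). Hox genes had 0 of 30, in only 12.5 kb of eligible exon, and hepatocyte genes 0 of 18, in 38.0 kb. Muscle genes had 2 of 18 (11.1%), a share close to that of all genes. Per Mb of eligible exon they had only 11.8 sites, over 169.2 kb, against the 56.6 of all genes. The 2 genes were Acta1, skeletal actin (1.16 and 0.812 in exon 4), and Ryr1, the muscle calcium release channel (0.731 and 0.893 in exon 14 of 109). The Acta1 site was not in the smaller list of both libraries. In single libraries muscle genes had 27.8% and 5.56%.

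**Figure D5:**
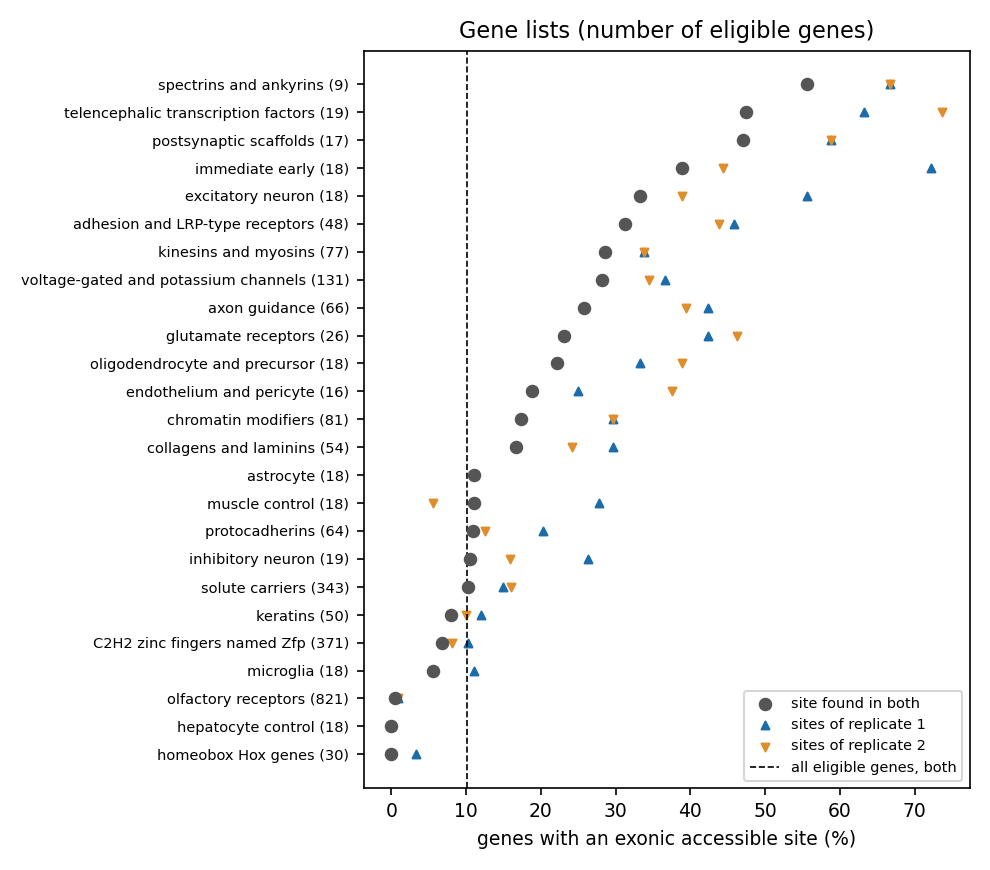
Percent of eligible genes with an exonic accessible site (x axis) in each of 25 gene lists, with the number of eligible genes in brackets; circles are sites found in both libraries, triangles are the sites of each library, and the dashed line marks the 10.1% of all eligible genes. Spectrins and ankyrins, telencephalic factors and postsynaptic scaffolds stand at the top, and olfactory receptor, hepatocyte and Hox genes at the bottom.

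Sites nearest to the 1 kb limits are given as examples of either side. In the set, just beyond the TSS limit, were sites at Itpripl2 (1002 bp; 0.446 in replicate 1 and 0.615 in replicate 2), Icam5 (1004 bp; 0.896 and 0.821) and Irf2bp2 (1005 bp; 1.24 and 1.15). Left out of the set, closer to a TSS than the limit, were sites at Cdk5r2 (0.945 and 0.634), Noa1 (0.31 and 0.48) and Foxc1 (0.664 and 0.538), each at 997 bp. At the gene-end limit, sites inside the set lay at Sgk1 (1002 bp; 0.828 and 0.595), Myo18a (1003 bp; 1.17 and 0.965) and Shroom1 (1005 bp; 2.17 and 2.81). Sites outside the set lay at Mrps30 (1000 bp; 1.32 and 1.6), Lca5l (999 bp; 0.969 and 0.749) and Spink10 (999 bp; 0.823 and 1.14). The gene-end limit takes the outermost end of a gene, and 314 exonic sites (14.3%) were within 1 kb of the 3′ end of some annotated transcript, 192 of them in 3′ UTRs. Repeated sequence touched few sites: in 74 (3.36%) at least 10% of the 31-base words occurred elsewhere in the genome.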

How the data were processed

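DNase-seq of 2 libraries of 1 group was read from the deposited calls, aligned by the authors to mm10 per the labels. The aligner, callers and filters were not given in the sources used here. Per the file headers and values, the authors deposited for each library a larger and a smaller peak list. Peak signal is the authors' cut density scaled to read depth, footprints carry a deposited FDR as a fraction (0.01 throughout), and cut-rate tables hold deposited q-values below 0.05. Signal values of each library were whole multiples of 1 step (tolerance 0.05 of a step), from which depth was read.

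Peaks of the larger lists were merged, classed by centre on GENCODE M21 and annotated on GRCm38.p6. TSS came from all transcripts, exons from basic transcripts of protein-coding genes. The signal of a merged peak is its highest in each library. Of 17 consensus motifs, matches were sought on both strands in the central 150 bp, and exon windows without a peak were the background. RefSeq starts came from the RefSeq annotation of the same build. Merging and motif search were tested on simulated data. Python 3.11.15, numpy 2.4.6, scipy 1.17.1, pysam 0.24.0 and samtools 1.23.1 were used.

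The exonic sites, the gene lists and the motifs were chosen with earlier results of these data known. Genes were named by rule: the 10 strongest sites and the 15 strongest with under 10% repeated words, the 10 genes with most sites, the 10 strongest sites with CTCF in footprints of both libraries, up to 4 per gene list, the 5 largest differences between libraries, the 3 on each side of each 1 kb limit, the 3 widest, and the 3 with most overlapping footprints. List members named without values were named after their values were seen. Some genes that the rule names are not reported here.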

Additional observations from a re-analysis of the deposited data

How the results depend on the processing

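The number of exonic sites was 1110 with the smaller peak lists, 1333 with limits of 2 kb, 910 in the upper 50% of shared peaks by signal, and 3643 to 4374 with 1 library alone. The coding share was 67.9% with the smaller lists, 59.6% with exons of all transcripts, 77.3% at 2 kb, 74.2% with TSS of basic transcripts only, 66.7% in the upper 50%, 71.1% under 10% repeated words, 70.8% away from RefSeq starts (an alternative chosen after seeing the data) and 70.2% to 70.3% with 1 library. Median signal was 1.08 with the smaller lists, 0.666 at 2 kb, 1.26 in the upper 50% and 0.504 to 0.533 with 1 library. The share with a footprint in at least 1 library, 96.5% as reported, was 99.6% in the upper 50%, 63.6% where footprints of both libraries had to overlap and 75% to 76.9% with 1 library. CTCF matched 9.37% with the smaller lists, 10.4% in the upper 50%, 8.9% with position 3 of the consensus free and 3.04% to 4.17% with 1 library. Genes with a site were 5.48% with the smaller lists, 11.8% with all exons, 7.81% at 2 kb, 11.7% with basic TSS, 4.61% in the upper 50% and 13.9% to 15.7% with 1 library. Requiring 50% overlap between libraries left 2173 sites, and exons of all transcripts gave 2656. A site had to be called in both libraries, so one that was called in neither is not shown to be closed. For values that moved under a stricter or wider set, the set itself holds other sites; no other cause was tested. No paired analysis was possible because there is 1 group.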
